A study of Homo sapiens with 6 samples.

Results

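The nuclear genes that encode the subunits of the oxidative phosphorylation machinery were examined for H3K27ac, an acetyl mark on lysine 27 of histone H3 that is found at active promoters. Members were chosen by symbol from the protein-coding genes of the GENCODE v44 annotation on chromosomes 1 to 22 and X: complex I (NDUFA, NDUFB, NDUFC, NDUFS and NDUFV genes), complex II (SDHA to SDHD), complex III (UQCR genes), complex IV (COX4 to COX8 genes) and ATP synthase (ATP5 genes). The rule gave 89 of 19970 genes. It used names only and no measured value. It also took in 11 genes that are not everyday subunits: isoforms used in particular tissues, gene copies and readthrough transcripts, which are described apart.

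The mark was mapped by CUT&Tag, in which an antibody guides a transposase that cuts the chromatin next to the antibody. The cells used were Kasumi-1 and MV4-11, established lines of acute myeloid leukemia, the first with a RUNX1::RUNX1T1 fusion and the second with a KMT2A fusion. Each line gave an NC library and a sh-ANP32B library, in which a short hairpin RNA lowers ANP32B, a histone-binding protein. The labels call the NC cells untreated, whereas the methods of the study describe a control hairpin (sh-NC). Replicates had been merged before peaks were called, so each of the 4 groups was 1 peak list, and no difference below has a replicate check or a test. The 2 IgG control samples were not analysed here. The lists give the position of each peak but no height and no read total, so the depth is unknown. Neither can a mark carried by fewer cells be told apart from a weaker mark in every cell.

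For each gene, the bases under peaks were counted within 2500 bases of its transcription start, a window of 5001 bases, and are called its cover. A gene has a promoter peak where its cover is above 0. On chromosomes 1 to 22 and X the lists held between 22112 and 24491 peaks, and their median width was 1045 (NC) and 980 bases (sh-ANP32B) for Kasumi-1 and 815 (NC) and 742 bases (sh-ANP32B) for MV4-11. The narrowest peak of a list was 275 to 357 bases wide, so that cover could not take small values between 0 and this width except at the edge of the window. Where 4 values are given for a gene, they are in the order Kasumi-1 NC, Kasumi-1 sh-ANP32B, MV4-11 NC and MV4-11 sh-ANP32B. The promoter of ANP32B itself had a cover of 3447, 3432, 3433 and 2631 bases. A hairpin acts on the messenger RNA, and a promoter mark does not check the knockdown.

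Marker genes of the lines did not follow the labels in every case. HOXA9, a homeobox gene that KMT2A fusions are known to switch on, had a cover of 4335 and 4707 bases in the libraries labelled Kasumi-1 and of 769 and 659 bases in those labelled MV4-11. HOXA10 had 5001 bases in both libraries labelled Kasumi-1, and 2648 and 1638 bases in those labelled MV4-11. RUNX1T1, POU4F1 and KIT, listed beforehand for Kasumi-1, had no promoter peak in any library. They therefore set neither line apart and do not bear on the labels. The myeloid genes SPI1 and RUNX1 had between 2689 and 3790 bases in all 4 libraries, and MEIS1 had between 3103 and 3337. PTPRC, the common leukocyte antigen, had 0 bases in both libraries labelled Kasumi-1 and 403 and 8 bases in those labelled MV4-11. The names of the lines are used below as the labels give them. Comparisons within a line do not rest on which line it is, whereas comparisons between the lines do.

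Oxidative phosphorylation is carried out by protein complexes of the inner mitochondrial membrane. Complexes I and II pass electrons from NADH and succinate to ubiquinone, complex III passes them to cytochrome c and complex IV to oxygen, and ATP synthase uses the resulting proton gradient to make ATP. Most subunits are encoded in the nucleus by broadly expressed genes on many chromosomes. Their promoters are commonly rich in CpG and often carry sites for the factors NRF1, GABPA (an ETS factor) and YY1. Acute myeloid leukemia cells are known to lean on this pathway.

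Of the 89 genes, 70 had an entry in the RefSeq promoter table (GRCh38.p14), and in 63 its start was the GENCODE start, to which the counts below are limited. Each entry holds 250 bases before the start and the 50 bases that begin with it. The NRF1 word GCATGCGC, on either strand, was present in 12 of 63 promoters (19.05%), against 4.526% of the 12926 promoters of all protein-coding genes matched in the same way. The ETS word CCGGAAG was in 19 (30.16%, against 15.35%), and the YY1 word AAGATGGC in 10 (15.87%, against 4.363%). These shares describe the members' promoters, whatever their acetylation. The words GGGCGG (SP and KLF factors) and CCAAT (NF-Y) were in 61.9% and 36.51% of the members' promoters and in 61.88% and 37.55% of all promoters. The CREB word TGACGTCA was in 7.937% against 2.94%, and the E-box CACGTG in 11.11% against 9.052%. The median GC content was 62.0%, against 63.67% over all. All promoters include those of genes without a peak. Among the 6411 promoters with a peak in Kasumi-1 NC, the NRF1, ETS and YY1 words were in 6.66%, 23.26% and 7.004%. In this set GGGCGG was in 75.56%, CCAAT in 37.79%, TGACGTCA in 3.931% and CACGTG in 11.34%, with a median GC content of 66.33%. Against this set the ETS difference was smaller, and the members' share with GGGCGG was lower. None of the NRF1, ETS and YY1 words holds another of these words, although the reverse complement of GCATGCGC overlaps the word itself where the sequence reads as a palindrome.

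Single examples of the patterns described below follow, 5′ to 3′ on the strand of the gene. The start is at base 251, and the NRF1, ETS and YY1 words are in capitals. These promoters are not typical in their words, since most hold the NRF1 word, against 19.05% of the members' matched promoters. SDHD (chr11:112086623-112086922, plus strand) and COX5B (chr2:97645812-97646111, plus strand) kept a peak in all libraries, but it no longer covered the start in MV4-11 sh-ANP32B. SDHB (chr1:17053983-17054282, minus strand) had a peak in the Kasumi-1 libraries only. COX6A1 (chr12:120437863-120438162, plus strand) and NDUFS8 (chr11:68030431-68030730, plus strand) lost their peak in MV4-11, NDUFS7 (chr19:1383657-1383956, plus strand) gained one there, NDUFA8 (chr9:122159730-122160029, minus strand) had a peak in MV4-11 NC only, and NDUFA9 (chr12:4648864-4649163, plus strand) had none. All positions are on GRCh38.
SDHD: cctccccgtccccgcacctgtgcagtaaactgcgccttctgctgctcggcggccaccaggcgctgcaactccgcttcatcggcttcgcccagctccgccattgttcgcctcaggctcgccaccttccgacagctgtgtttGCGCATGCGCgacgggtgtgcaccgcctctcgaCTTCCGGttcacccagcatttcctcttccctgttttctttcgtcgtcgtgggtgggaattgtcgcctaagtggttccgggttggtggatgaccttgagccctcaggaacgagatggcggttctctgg
COX5B: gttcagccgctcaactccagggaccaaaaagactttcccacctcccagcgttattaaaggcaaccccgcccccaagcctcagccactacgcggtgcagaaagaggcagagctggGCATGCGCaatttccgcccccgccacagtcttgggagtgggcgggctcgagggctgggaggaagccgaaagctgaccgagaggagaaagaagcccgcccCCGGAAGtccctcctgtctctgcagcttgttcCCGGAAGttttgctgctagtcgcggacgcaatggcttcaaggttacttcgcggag
SDHB: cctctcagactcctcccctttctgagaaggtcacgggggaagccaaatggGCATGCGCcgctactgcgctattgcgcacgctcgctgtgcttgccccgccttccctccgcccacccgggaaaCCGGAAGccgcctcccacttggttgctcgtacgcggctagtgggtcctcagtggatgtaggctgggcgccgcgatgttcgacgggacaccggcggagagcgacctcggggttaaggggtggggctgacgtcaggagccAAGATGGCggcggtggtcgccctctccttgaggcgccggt
COX6A1: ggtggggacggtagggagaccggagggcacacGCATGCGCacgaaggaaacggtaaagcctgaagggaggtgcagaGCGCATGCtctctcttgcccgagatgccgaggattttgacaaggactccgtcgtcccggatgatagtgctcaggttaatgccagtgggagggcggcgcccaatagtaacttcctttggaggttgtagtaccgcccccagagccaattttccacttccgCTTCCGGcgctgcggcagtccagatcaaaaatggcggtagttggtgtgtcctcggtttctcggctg
NDUFS8: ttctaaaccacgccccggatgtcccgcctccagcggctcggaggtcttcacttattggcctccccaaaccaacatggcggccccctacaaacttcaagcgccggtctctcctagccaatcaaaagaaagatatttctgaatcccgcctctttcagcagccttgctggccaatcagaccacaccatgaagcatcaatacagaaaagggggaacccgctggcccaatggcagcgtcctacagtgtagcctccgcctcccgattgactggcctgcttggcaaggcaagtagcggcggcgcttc
NDUFS7: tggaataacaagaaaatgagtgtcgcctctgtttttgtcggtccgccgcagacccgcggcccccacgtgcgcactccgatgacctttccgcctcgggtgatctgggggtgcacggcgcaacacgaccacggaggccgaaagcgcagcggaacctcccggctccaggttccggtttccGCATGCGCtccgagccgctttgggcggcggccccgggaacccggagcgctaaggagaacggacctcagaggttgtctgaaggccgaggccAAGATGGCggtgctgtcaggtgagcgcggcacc
NDUFA8: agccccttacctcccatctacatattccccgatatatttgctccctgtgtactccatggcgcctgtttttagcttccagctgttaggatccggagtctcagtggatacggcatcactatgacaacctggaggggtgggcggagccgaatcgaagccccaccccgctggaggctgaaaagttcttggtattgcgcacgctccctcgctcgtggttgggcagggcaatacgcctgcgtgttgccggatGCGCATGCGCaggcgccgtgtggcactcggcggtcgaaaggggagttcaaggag
NDUFA9: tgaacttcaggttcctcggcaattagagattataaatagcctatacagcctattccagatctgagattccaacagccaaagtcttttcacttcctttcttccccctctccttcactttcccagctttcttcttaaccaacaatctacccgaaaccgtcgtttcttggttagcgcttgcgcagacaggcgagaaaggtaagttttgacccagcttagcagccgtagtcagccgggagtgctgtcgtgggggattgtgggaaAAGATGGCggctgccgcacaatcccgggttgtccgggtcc

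In SDHD and NDUFA8 the pair of NRF1 matches, on opposite strands, overlap each other, and in NDUFA8 they lie across the start. COX5B holds 1 NRF1 and 2 ETS words, COX6A1 2 NRF1 words and 1 ETS word, and SDHB 1 NRF1, 1 ETS and 1 YY1 word. The YY1 word of SDHB and of NDUFA9 begins 10 bases after the start, and that of NDUFS7, 17 bases after it. NDUFS8 holds none of these words, and CCAAT occurs 4 times in it. Some of these printed promoters shared words and differed in acetylation pattern. The NRF1 word was present in 7 of the 35 matched members with a peak in all 4 libraries. It was in 2 of the 6 matched members that lost their peak in MV4-11. Of the 12 with a peak in the Kasumi-1 libraries only, 1 held it, SDHB. Whether the words go with the patterns was not tested.

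The first question was how widely the subunit genes carried the mark. A promoter peak was present at 79 of 89 genes in the NC library of Kasumi-1 (88.76%, Wilson 95% interval 80.54 to 93.78%) and at 78 in its sh-ANP32B library (87.64%, 79.21 to 92.96%). In MV4-11 it was present at 64 genes in the NC library (71.91%, 61.82 to 80.19%) and at 57 in the sh-ANP32B library (64.04%, 53.69 to 73.24%). These intervals treat the genes as independent draws and cover neither libraries nor cultures. Over all 19970 protein-coding genes a peak was present at 47.8% and 45.4% (Kasumi-1) and 35.8% and 28.7% (MV4-11), so that the subunit genes were marked more widely than the average gene in each library. Their peaks were not broad. The median cover of those with a peak was 1291, 1256, 953.5 and 652 bases, against 1500, 1522, 1046 and 911 bases over all genes with a peak.

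**Figure D1:**
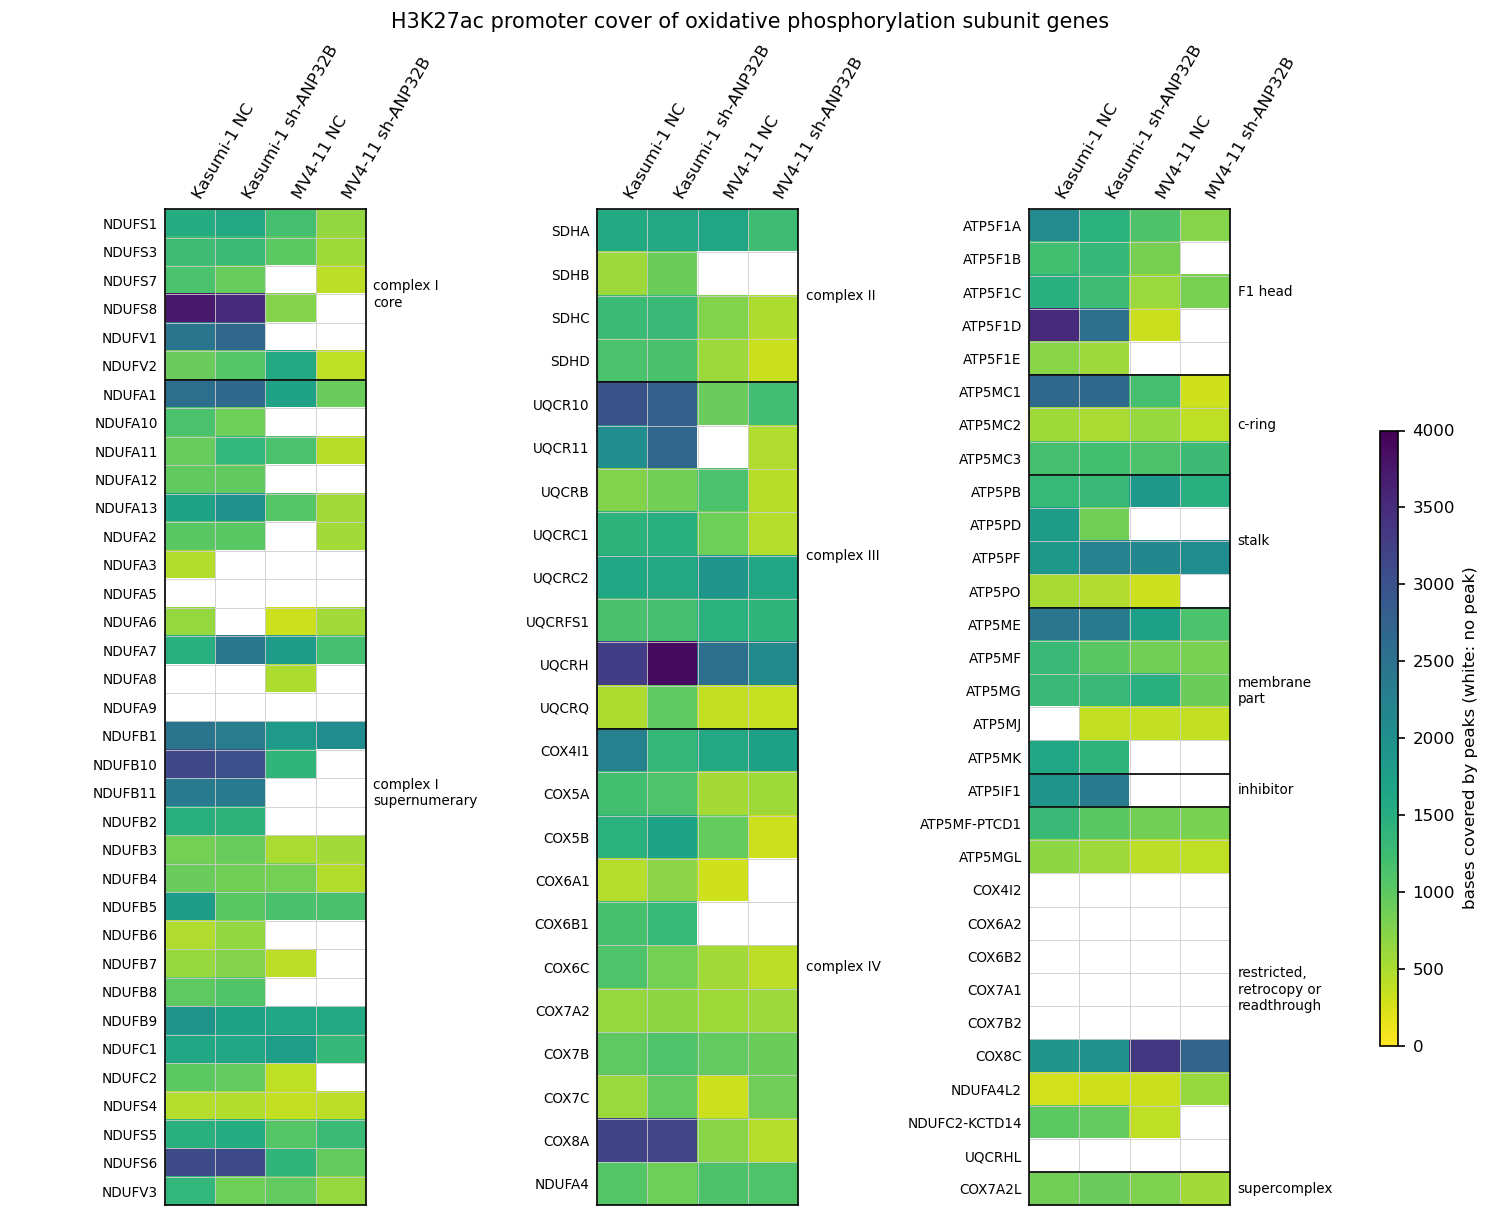
Bases under H3K27ac peaks within 2500 bases of the start (colour) for 88 of the 89 genes (rows, by complex) in the 4 libraries (columns), with white for no peak. White cells gather in the MV4-11 columns; over all 89 genes, 64 and 57 had a peak there, against 79 and 78 in the Kasumi-1 libraries.

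All 4 libraries shared a peak at 52 genes. A further 13 had a peak in both Kasumi-1 libraries and in neither MV4-11 library, 9 in all but MV4-11 sh-ANP32B, 3 in all but MV4-11 NC, and 8 in none. The remaining 4 each had a pattern of their own: NDUFA3 was marked in Kasumi-1 NC alone, NDUFA8 in MV4-11 NC alone, NDUFA6 in all but Kasumi-1 sh-ANP32B, and ATP5MJ in all but Kasumi-1 NC. These patterns were not counted over all genes, for which shares are given below for pairs of libraries only. The 78 everyday subunit genes had a peak in 74, 73, 59 and 53 cases. The 11 isoform, copy and readthrough genes had one in 5, 5, 5 and 4.

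Other mitochondrial genes gave a comparison. The 78 genes of the mitochondrial ribosome, which translates the subunits encoded in mitochondrial DNA, had a peak in 69, 68, 55 and 39 cases. The 81 genes of the cytosolic ribosome had one in 81, 81, 78 and 71. Their median cover was 1277, 1266, 902 and 777 bases for the mitochondrial ribosome and 1573, 1591, 1356 and 1002 bases for the cytosolic ribosome. In both NC libraries and in Kasumi-1 sh-ANP32B the subunit genes thus stood close to the mitochondrial ribosome in share and cover. In MV4-11 sh-ANP32B a larger share of the subunit genes had a peak (57 of 89 against 39 of 78), with intervals of the share that overlap (53.69 to 73.24% and 39.17 to 60.83%).

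**Figure D2:**
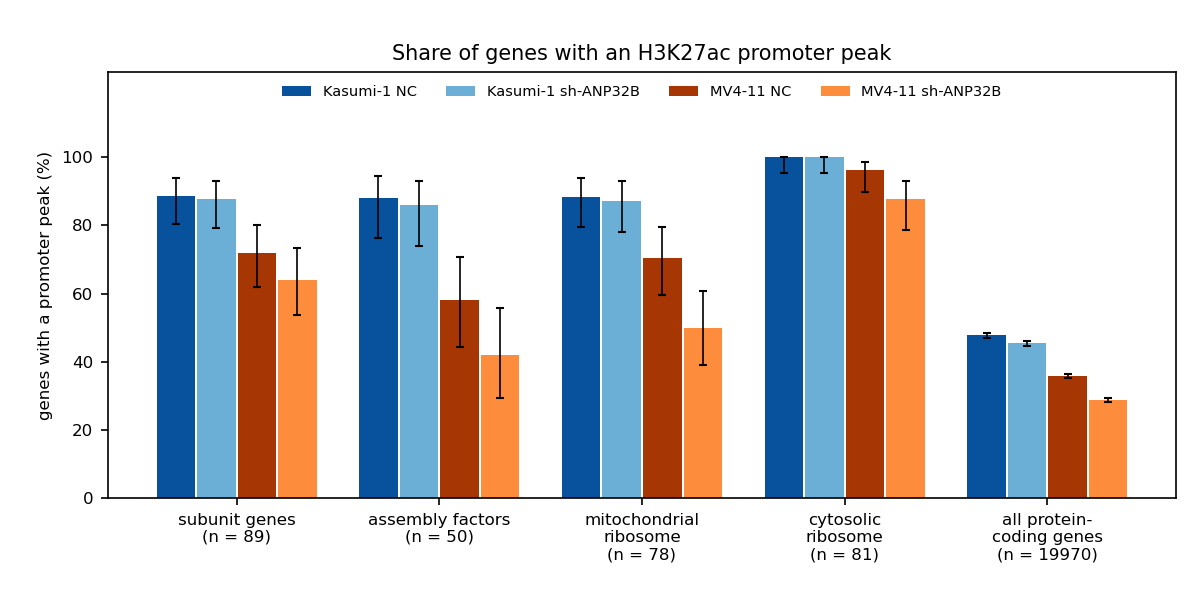
Percentage of genes with an H3K27ac promoter peak in each library for the subunit genes, 50 assembly factors, 2 ribosomal gene sets and all protein-coding genes, with Wilson 95% intervals as bars. Subunit genes stood at 88.76% in Kasumi-1 NC and 64.04% in MV4-11 sh-ANP32B, and all genes at 47.8% and 28.7%.

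The NC libraries of the lines differed at many subunit genes. Of 81 genes with a peak in either, 17 had it in Kasumi-1 NC only (21.0%) and 2, ATP5MJ and NDUFA8, in MV4-11 NC only. The same was true of 27.1% and 2.84% of all genes with a peak in either, the first above the members' share and the second near it. At the 62 genes with a peak in both, cover was lower in MV4-11 at 47 and higher at 15, with a median log2 ratio of -0.54 (all genes -0.58). The order of the genes also differed. Across the 89 genes, Spearman's rho between the NC libraries was 0.54, against 0.93 between the Kasumi-1 libraries and 0.81 between the MV4-11 libraries. Over all genes these values were 0.79, 0.96 and 0.85, and they include the many genes without a peak in either library. These values describe genes within lists and carry no test, and the low value between the lines comes with marker genes that did not follow the labels, whose bearing on it was not tested.

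In complex I, the 7 core subunits hold the redox centres and the site where ubiquinone is reduced. All 7 had a peak in both Kasumi-1 libraries and 5 in each MV4-11 library. NDUFS1, the largest iron-sulphur subunit, had 1519, 1591, 1185 and 652 bases, and NDUFS3 had 1239, 1276, 1012 and 565. In both, the Kasumi-1 libraries lay close together and MV4-11 sh-ANP32B lay lowest. NDUFV1, which binds NADH and its flavin, had 2446 and 2678 bases in Kasumi-1 and no promoter peak in MV4-11, where the nearest peak of the NC library lay 2651 bases upstream of the start. Its partner NDUFV2 had 908, 1050, 1553 and 390 bases. In MV4-11 NC it held 2 peaks, from 292 bases before to 574 after the start and from 1003 to 1688 after it, and in MV4-11 sh-ANP32B 1 peak from 33 to 422 bases after the start.

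NDUFS8, an iron-sulphur subunit of the arm that leads to ubiquinone, had 3727, 3524, 747 and 0 bases, the first being the largest cover of any member in Kasumi-1 NC. Its MV4-11 NC peak lay across the start, and after knockdown the nearest peak was 5227 bases downstream. NDUFS7, which carries the last iron-sulphur cluster before ubiquinone, went the other way in MV4-11, with 1131, 928, 0 and 401 bases. Its new peak ran from 121 to 521 bases after the start. Among these core genes the MV4-11 pair differed by at least 1.5-fold at 5 of the 6 with a peak in either, 4 lower or lost (all genes 45.0%) and 1 gained (all genes higher or gained, 7.28%), and the Kasumi-1 pair at none (all genes 14.6% and 4.87%).

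The 29 supernumerary subunits of complex I surround this core and are needed for its assembly and stability. A peak was present at 26, 24, 19 and 16 of them. In Kasumi-1 the widest cover among them lay at NDUFB10 (3125, 3018, 1390 and 0 bases) and NDUFS6 (3078, 3077, 1381 and 945 bases). At NDUFB10, a subunit that faces the intermembrane space, the window lay at the edge of peaks of 7242 and 7125 bases in Kasumi-1, which reached 6617 and 6607 bases past the start. In MV4-11 NC 2 short peaks lay in the window (chr16:1959534-1960061 and chr16:1960756-1961617, GRCh38), and in MV4-11 sh-ANP32B none. This difference of -1390 bases was the largest downward one of any member in either line.

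The supernumerary genes NDUFA10, NDUFA12, NDUFB2, NDUFB6, NDUFB8 and NDUFB11 had a peak in both Kasumi-1 libraries and in neither MV4-11 library. In Kasumi-1 NC their cover ran from 481 bases at NDUFB6 to 2370 bases at NDUFB11. Another 14, NDUFS6 among them, had a peak in every library, with the least NC cover at NDUFS4 (449, 468, 365 and 393 bases). NDUFB7 and NDUFC2 lost a narrow MV4-11 peak of 397 and 385 bases, with 623 and 745 bases, and 1014 and 964 bases, in Kasumi-1. NDUFA2 had 1026, 1027, 0 and 559 bases, a peak in all libraries but MV4-11 NC. NDUFA8, a subunit on the intermembrane side, had a peak of 496 bases in MV4-11 NC alone. NDUFA3, a small membrane subunit, had 466 bases in Kasumi-1 NC alone. NDUFA6 had 626, 0, 309 and 561 bases, and so was lost in Kasumi-1 and higher after knockdown in MV4-11. Its MV4-11 NC peak was close to the narrowest of that list (289 bases).

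NDUFA5 and NDUFA9 had no peak in any library although both encode everyday subunits. NDUFA9 shares its start region with AKAP3, whose start lies 63 bases upstream on the other strand, and the nearest peak to NDUFA9 was between 81202 and 109994 bases away. For NDUFA5 the nearest peak was at least 189926 bases away. With the starts of all coding transcripts in place of the canonical start (10 starts for NDUFA5 and 3 for NDUFA9), both were still at 0. Without read totals it cannot be said whether the mark was absent at these genes or below the level at which peaks were called.

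Complex II, succinate dehydrogenase, belongs to the citric acid cycle as well. SDHA, the flavoprotein that oxidises succinate, had 1554, 1592, 1639 and 1240 bases. SDHC and SDHD, which anchor the enzyme in the membrane, had 1267, 1295, 752 and 489 bases, and 1131, 1142, 585 and 327 bases. SDHB, the iron-sulphur subunit, had 588 and 898 bases in Kasumi-1 and none in MV4-11. Thus SDHA was nearly level over the first 3 libraries, while SDHC and SDHD were lower in MV4-11 NC than in Kasumi-1 and lowest in MV4-11 sh-ANP32B. At SDHD the left edge of the peak moved from 182 bases before the start in MV4-11 NC to 13 bases after it in MV4-11 sh-ANP32B, leaving the overlapping NRF1 words uncovered, while the right edge moved from 402 to 339 bases after the start.

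In complex III, the core proteins UQCRC1 and UQCRC2 behaved differently. UQCRC1 had 1409, 1488, 886 and 441 bases and UQCRC2 1599, 1586, 1899 and 1600. UQCRFS1, the Rieske iron-sulphur protein that passes electrons on to cytochrome c1, had 1152, 1172, 1452 and 1379 bases, higher in both MV4-11 libraries than in Kasumi-1. UQCRH, the hinge protein, was among the most covered members in every library, with 3266, 3882, 2523 and 2096 bases. It shares its start region with LRRC41, 82 bases upstream on the other strand, and the peak cannot be assigned to either gene. UQCRQ had 488, 991, 374 and 355 bases, and was the member with the largest ratio among those with a peak in both Kasumi-1 libraries, log2 1.02. UQCR11 had 2044, 2678, 0 and 471 bases, and so gained a peak in MV4-11. UQCR10 had 3009, 2769, 915 and 1232 bases. Complex III was the only complex with a peak at every member in MV4-11 sh-ANP32B, 8 of 8, against 7 in MV4-11 NC.

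In complex IV, all 11 everyday subunit genes had a peak in both Kasumi-1 libraries, and 10 (NC) and 9 (sh-ANP32B) in MV4-11. COX4I1, which joins the enzyme early in its assembly, had 2243, 1343, 1580 and 1743 bases. It shares its start region with EMC8. COX5A had 1216, 1101, 540 and 571 bases, with little between the libraries of a line. COX5B, a zinc-binding subunit, had 1446, 1673, 951 and 304 bases, the third largest downward ratio in MV4-11 among members with a peak in both libraries (log2 -1.65). Its MV4-11 peak ran from 560 bases before to 390 bases after the start in NC, and from 111 to 414 bases after it in sh-ANP32B, so that the NRF1 and ETS words printed above were under the first and not the second. COX8A stood out by line, with 3180 and 3170 bases in Kasumi-1 and 716 and 446 in MV4-11. COX6B1 had 1160 and 1323 bases in Kasumi-1 and none in MV4-11. COX7A2 had 633, 687, 575 and 589 bases and COX7B 989, 1097, 956 and 892, nearly level over the libraries. COX7A2L, which helps to join complexes into supercomplexes, had 858, 909, 780 and 556 bases.

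COX6A1, the widely used form of its subunit, differed in opposite directions. It had 438, 696, 296 and 0 bases, with the MV4-11 NC peak close to the narrowest of that list (289 bases). In Kasumi-1 its peak grew on the upstream side, from 22 to 273 bases before the start, which took in both of its NRF1 words. COX7C had 606, 960, 309 and 874 bases, at least 1.5-fold more in the sh-ANP32B library of both lines. Its 2.828-fold ratio was the largest in MV4-11, and its peak moved there from 65 bases before and 243 after the start to between 55 and 928 bases after it. NDUFA4, once counted with complex I and now known as a complex IV subunit, had 1054, 879, 1115 and 1109 bases.

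In the F1 head of ATP synthase, where ATP is made, 5 genes had a peak in both Kasumi-1 libraries, and 4 (NC) and 2 (sh-ANP32B) in MV4-11. ATP5F1A, the alpha subunit, had 2066, 1443, 1121 and 724 bases, and was lower in the sh-ANP32B library of each line. In Kasumi-1 the peak over its start was 1401 (NC) and 1443 bases (sh-ANP32B) wide. The lower cover there came from a separate NC peak, 1322 to 1986 bases after the start, that was absent from sh-ANP32B. ATP5F1B, the catalytic beta subunit, had 1209, 1342, 813 and 0 bases. ATP5F1C, the gamma subunit that turns inside the head, had 1466, 1235, 599 and 812 bases. ATP5F1D had 3515, 2559, 313 and 0 bases, the largest downward difference in Kasumi-1 (-956 bases) and a lost peak in MV4-11. ATP5F1E, the epsilon subunit, had 706 and 588 bases in Kasumi-1 and none in MV4-11.

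The 3 genes for subunit c, whose copies form the rotating ring, encode the same mature protein, and they differed in their marks. ATP5MC1 had 2670, 2633, 1187 and 283 bases, ATP5MC2 564, 512, 611 and 376, and ATP5MC3 1178, 1216, 1117 and 1264. ATP5MC1 had the largest downward ratio of any member with a peak in both MV4-11 libraries (log2 -2.07), and the 310-base peak that began just after its start in MV4-11 NC was absent in MV4-11 sh-ANP32B, where cover lay only between 1277 and 995 bases upstream. ATP5MC3 was nearly level over the 4 libraries.

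Of the peripheral stalk, which holds the head still, ATP5PB had 1320, 1307, 1860 and 1488 bases and ATP5PF 1873, 2251, 2149 and 2051. ATP5PF shares its start region with GABPA, the ETS factor named above, whose start lies 68 bases upstream on the other strand, so both genes have the same cover here. ATP5PD had 1809 and 855 bases in Kasumi-1, the largest downward ratio there (log2 -1.08), and none in MV4-11. ATP5PO had 526, 479, 301 and 0 bases. Of the membrane part, ATP5MK had 1623 and 1400 bases in Kasumi-1 and none in MV4-11, and ATP5MJ 0, 364, 369 and 366, close to the narrowest peaks of the lists. The other 3 had peaks in every library. ATP5ME had 2432, 2358, 1748 and 1135 bases, and ATP5MG 1312, 1309, 1482 and 897, nearly level in Kasumi-1 and lower after knockdown in MV4-11. ATP5MF had 1291, 1020, 851 and 809, lower in Kasumi-1 and nearly level in MV4-11. ATP5IF1, the inhibitor that stops the enzyme from running backwards, had 1937 and 2330 bases in Kasumi-1 and none in MV4-11.

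Of the genes outside everyday use, COX4I2, COX6A2, COX6B2, COX7A1 and COX7B2, the isoforms of lung, muscle and testis, had no peak in any library, nor had UQCRHL, a retrocopy of UQCRH. COX8C, another testis isoform, had a peak in every library (chr14:93346235-93349593 in MV4-11 NC). It had 1919 and 1938 bases in Kasumi-1 and 3359 and 2694 in MV4-11, the largest cover of any member in both MV4-11 libraries, and the nearest other coding start, that of BTBD7, was 14146 bases away. NDUFA4L2, known as a hypoxia-induced paralogue of NDUFA4, had 272, 283, 327 and 623 bases, all from a peak whose nearest edge lay at positions -2229 to -1878 relative to the start. ATP5MGL, a copy of ATP5MG, had 687, 588, 394 and 387 bases, from peaks whose nearest edge lay at positions -2114 to -1814. The readthrough genes ATP5MF-PTCD1 and NDUFC2-KCTD14 begin within 89 bases of ATP5MF and NDUFC2 and had the same cover as these.

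The effect of the knockdown was compared within each line. In Kasumi-1, 2 of 79 genes lost their peak, NDUFA3 and NDUFA6 (2.53%, against 6.79% of all genes with an NC peak), and 1 of 10 gained one, ATP5MJ (against 1.61% of all genes without an NC peak). The mitochondrial ribosome genes, 69 of 78 with a Kasumi-1 NC peak, gained 2. Among the subunit genes the loss was 2 of 73 with at least 500 covered bases (all genes 7.77%). With only peaks of at least 1000 bases it was 8 of 57 (all genes 12.4%). Cover was at least 1.5-fold lower, loss included, at 6 of 80 genes with a peak in either library (7.5%, all genes 14.6%) and at least 1.5-fold higher, gain included, at 6 (7.5%, all genes 4.87%). The lower ones were ATP5PD, NDUFB5, COX4I1, NDUFV3, NDUFA3 and NDUFA6, and the higher ones UQCRQ, NDUFA7, COX6A1, COX7C, SDHB and ATP5MJ. Of the 77 genes with a peak in both, 36 had less and 41 more cover, with a median change of 5.0 bases and a median log2 ratio of 0.0074 (all genes 0.0041). The largest downward differences were at ATP5F1D, ATP5PD, COX4I1, NDUFB5 and NDUFA6 and the largest upward ones at NDUFA7, UQCR11, UQCRH, UQCRQ and NDUFA11, from -956 to 903 bases.

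In MV4-11, 10 of 64 genes lost their peak (15.6%, against 24.4% of all genes with an NC peak): ATP5F1B, ATP5F1D, ATP5PO, COX6A1, NDUFA8, NDUFB7, NDUFB10, NDUFC2, its readthrough NDUFC2-KCTD14, and NDUFS8. A gain was seen at 3 of 25 without an NC peak, NDUFA2, NDUFS7 and UQCR11 (12.0%, against 2.46% of all genes without one). Of all 19970 genes, 12497 had no peak in either MV4-11 library. The mitochondrial ribosome genes, 55 of 78 with an NC peak, gained 4. The cytosolic ribosome genes, 78 of 81 with an NC peak, gained 0. The members' small count of 3 was 1 with only peaks of at least 1000 bases or without shared starts. It was 5 with a common minimum width and joining gap. Cover was at least 1.5-fold lower or lost at 29 of 67 genes (43.3%, all genes 45.0%) and at least 1.5-fold higher or gained at 6 (8.96%, all genes 7.28%). Of the 54 genes with a peak in both, 41 had less and 13 more cover. The median change was -229.5 bases and the median log2 ratio -0.29, close to the -0.27 of all genes. This closeness depended on which peaks entered. With at least 500 covered bases required, the median log2 ratios were -0.10 for the subunit genes and -0.22 for all genes, and with only peaks of at least 1000 bases, -0.067 and -0.15. The lost share depended on it too. With at least 500 covered bases, 15 of 50 genes lost their peak (all genes 29.9%), and with only peaks of at least 1000 bases, 9 of 28 (all genes 39.4%). The largest downward differences were at NDUFB10, NDUFV2, ATP5MC1, ATP5F1B and NDUFA1 (-1390 to -770 bases), and the largest upward ones at COX7C, NDUFA2, UQCR11, NDUFS7 and UQCR10 (317 to 565 bases).

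**Figure D3:**
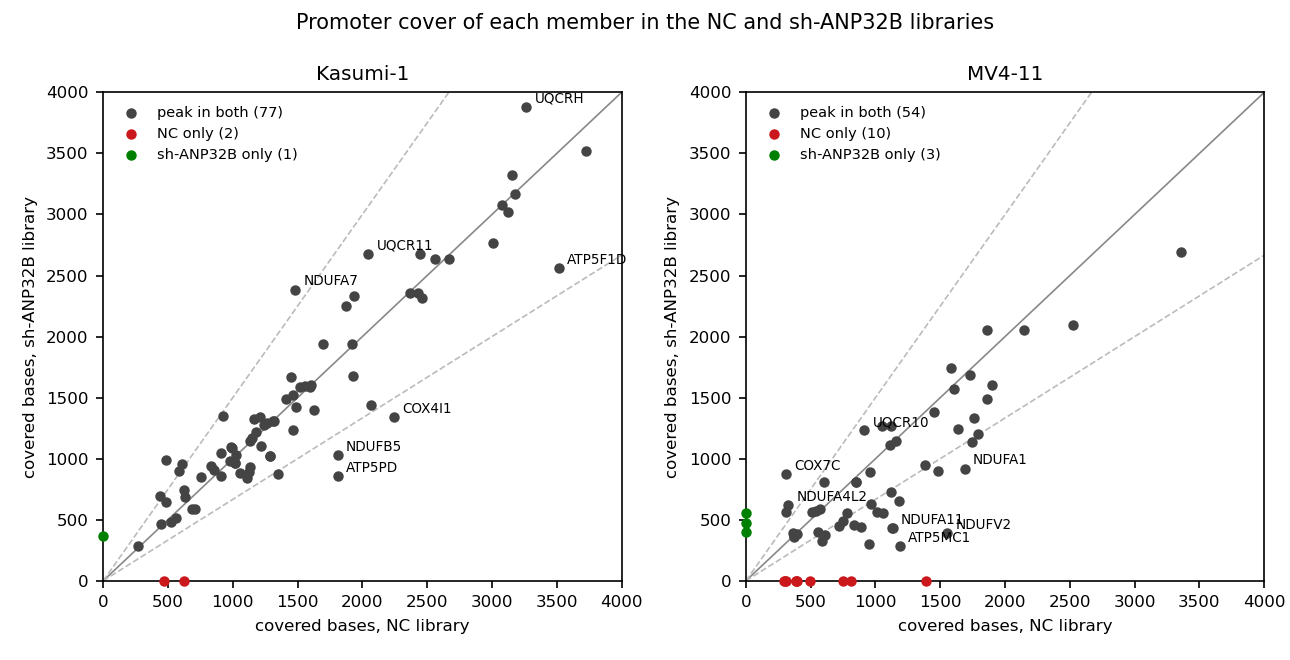
Covered bases of each gene in the NC library (x axis) and the sh-ANP32B library (y axis) of Kasumi-1 and MV4-11, with the line of equality and, dashed, 1.5-fold differences. In Kasumi-1 the 77 genes with a peak in both lie around the line, and in MV4-11 41 of 54 lie below it, with 10 lost genes on the x axis.

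The peaks lost in MV4-11 were mostly narrow ones. Of the 14 genes with a cover under 500 bases in MV4-11 NC 7 lost it, against 2 of 20 with 500 to 999 bases, 1 of 15 with 1000 to 1499 and 0 of 15 with 1500 or more. Over all genes the shares in these classes were 60.1%, 35.3%, 12.4% and 2.89%. In the class of 500 to 999 bases the mitochondrial ribosome genes lost 11 of 24 (45.8%). The 2 subunit genes lost in that class were ATP5F1B and NDUFS8. NDUFB10 was the member lost from above 1000 bases.

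**Figure D4:**
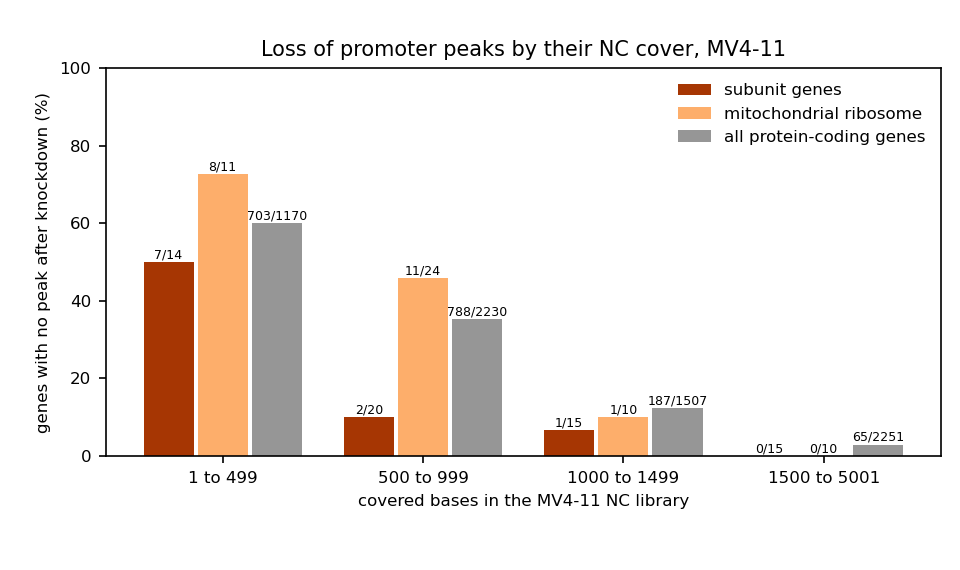
Percentage of genes without a peak in MV4-11 sh-ANP32B (y axis) by their covered bases in MV4-11 NC (x axis), for the subunit genes, the mitochondrial ribosome genes and all genes, with lost and total numbers above the bars. Loss was less frequent at higher NC cover in all 3 sets, with 7 of 14 in the lowest and 0 of 15 in the highest class of the subunit genes.

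The position of the peaks relative to the start was also compared. The start itself lay under a peak at 73 of 79 members with a peak (92.4%) in the NC library of Kasumi-1 and 75 of 78 (96.2%) in its sh-ANP32B library, and for MV4-11 at 50 of 64 (78.1%) in the NC and 37 of 57 (64.9%) in the sh-ANP32B library. Over all genes with a peak these shares were 86.7%, 77.8%, 66.4% and 57.5%. Of the genes with a peak in both Kasumi-1 libraries, 72 members had a covered start in NC, and 0 of them lost that cover, whereas 13.5% of all such genes did. Of the 5 without it, 2 gained it, ATP5PO and UQCRQ (all genes 12.7%). The cytosolic ribosome genes were alike in this, with 0 of 77, and the mitochondrial ribosome genes lost it at 5 of 61.

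In MV4-11, 9 of 43 members with a covered start in NC and a peak in both libraries no longer had it covered in sh-ANP32B (20.9%, all genes 23.6%). They were ATP5ME, ATP5MJ, COX5B, COX7C, NDUFA11, NDUFA13, NDUFV2, SDHC and SDHD. Of 11 without it, 2 gained it, ATP5MC2 and COX7A2 (all genes 13.7%). In both MV4-11 libraries the members, like all genes with a peak, were covered most often downstream of the start. Over all genes the highest shares were 77.07% (NC) and 70.17% (sh-ANP32B), both at 150 bases after the start. At 150 bases after the start 52 of the 57 members with a peak in MV4-11 sh-ANP32B were covered (91.23%), against 37 at the start itself. In MV4-11 NC the highest number, 59 of 64, was shared by the positions from 100 to 200 bases after the start. In Kasumi-1 NC 74 of 79 were covered at each position from 50 to 350 bases after the start, against 73 at the start. In Kasumi-1 sh-ANP32B 74 of 78 were covered over the same stretch, against 75 at the start. Over all genes the highest Kasumi-1 shares lay 150 bases (90.67%, NC) and 200 bases (82.75%, sh-ANP32B) after the start.

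**Figure D5:**
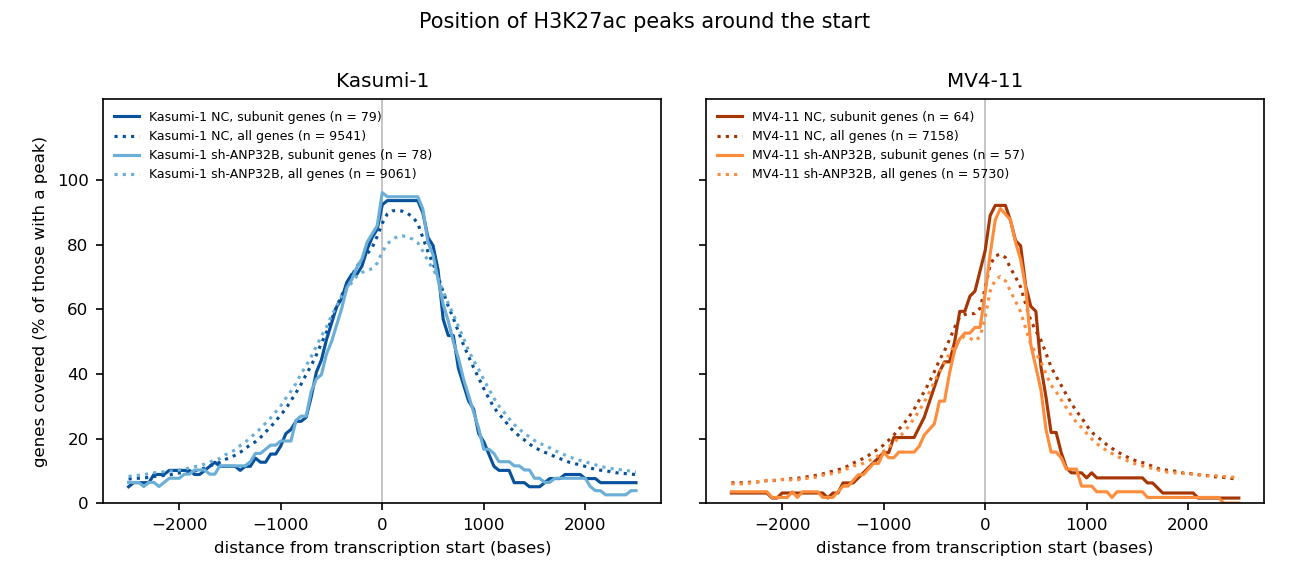
Percentage of genes with a peak that were covered at each distance from the transcription start (x axis, bases, negative upstream), for the subunit genes (solid) and all genes (dotted) in the 4 libraries. The solid lines peak at 91.23 to 96.15%, and at the start those of MV4-11 stand at 78.1% (NC) and 64.9% (sh-ANP32B).

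Many of the members share their start region with another gene, and their peaks cannot be assigned to either. The start of another coding gene lay within 1000 bases at 35 of 89 members, and at 25 this was a gene that runs in the opposite direction, head to head. Examples are SDHA with CCDC127, SDHD with TIMM8B, NDUFS1 with EEF1B2, NDUFS3 with KBTBD4, NDUFA1 with RNF113A, NDUFA2 with IK, NDUFA7 with RPS28, NDUFA8 with MORN5, NDUFB5 with MRPL47, NDUFB11 with RBM10, ATP5PD with KCTD2, ATP5MK with PDCD11, UQCR10 with ZMAT5 and UQCRQ with GDF9. The 25 head-to-head members had a peak in 23, 23, 20 and 20 cases, with a median cover of 1698, 1591, 1382 and 1140 bases. The 54 members with no other coding start within 1000 bases had a peak in 46, 45, 36 and 31 cases, with 1142, 1097, 824.5 and 561 bases. Head-to-head members thus had more cover in each library. Among them the number with a peak was the same in both MV4-11 libraries, although NDUFA8 lost its peak and NDUFA2 gained one. The number and cover of genes in these arrangements were not compared with those over all genes.

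Genes that work with the subunits were counted in the same way. Of 50 assembly factors, which build the complexes but are not part of them, 44, 43, 29 and 21 had a peak. In Kasumi-1, 2 of 44 lost it (all genes 6.79%), LYRM7 and NDUFAF6, with 373 and 861 bases in NC. TMEM126B gained it (403 bases, against a gain at 1.61% of all genes without an NC peak). In MV4-11, 8 of 29 lost it (all genes 24.4%), and 0 gained it (2.46% of all genes without an NC peak). The lost ones were NDUFAF5, NDUFAF7, NDUFAF8 and TIMMDC1 for complex I, SDHAF4 for complex II, UQCC2 for complex III, and COA3 and PET117 for complex IV. Their NC cover ran from 321 bases at SDHAF4 to 1036 bases at NDUFAF5. Cover was at least 1.5-fold lower or lost at 15 of these 29 assembly factors in MV4-11 (all genes 45.0%) and at least 1.5-fold higher or gained at 0 (all genes 7.28%).

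Of 14 regulators of the pathway, 13, 13, 10 and 8 had a peak. NRF1, the factor whose word was searched above, had 2586, 2176, 1448 and 0 bases. TFB2M, needed to start transcription of mitochondrial DNA, had 1418, 1397, 388 and 0 bases. These were the only regulators lost, 2 of the 10 with an MV4-11 NC peak (all genes 24.4%). In Kasumi-1 0 were lost or gained (all genes 6.79% and 1.61%). GABPB1, the partner of GABPA, was level within each line with 1756, 1771, 2274 and 2295 bases, and YY1 had 2966, 2208, 1376 and 899. PPARGC1A, a coactivator best known in muscle and brown fat, had no peak in any library, whereas PPARGC1B had 2508 and 2550 bases in Kasumi-1 and none in MV4-11. Of the subunits and carriers that the naming rule leaves out, CYCS, cytochrome c, had 1165, 1366, 839 and 534 bases, CYC1 had 1842, 1724, 1156 and 996, and NDUFAB1, the acyl carrier of complex I, had 553 and 658 bases in Kasumi-1 and none in MV4-11.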

How the data were processed

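H3K27ac peak lists of 4 CUT&Tag libraries (Kasumi-1 and MV4-11, NC and sh-ANP32B) were analysed, with groups taken from the labels. According to the methods of the study, the authors aligned reads to hg38 with Bowtie2, removed PCR duplicates with Picard, merged replicates with samtools and called peaks with MACS2 at a q-value threshold, whereas the submitters' processing notes name Bowtie2 2.4.4 and MACS3 3.0. Whether IgG served as control is not given in the sources used here. The deposited lists give the start, end and length of each peak in bases, and no height, signal, score or read total. Peaks on chromosomes 1 to 22 and X were intersected with windows of 2500 bases to each side of the canonical start of 19970 GENCODE v44 protein-coding genes (Python 3.11.15, pandas 2.3.3, NumPy 2.4.6), after the scripts had been tested on simulated peaks. Lists called with different minimum widths were compared as deposited, so narrow peaks could be present in the MV4-11 lists that would not have entered the Kasumi-1 lists. No test was possible with 1 list per group. Genes were named by a rule: members without a peak in at least 1 library, the 5 with most cover in each NC library, the 5 largest downward and upward differences per line, core subunits, neighbours within 1000 bases, and pathway genes lost or gained. The values of 1 gene are not reported here, although it is part of every count. Members, lists and rules were chosen with earlier results of these data known. Alternatives were a window of 1000 bases, peaks of at least 1000 bases, the same minimum width and gap (357 bases) for every list, at least 500 covered bases, all coding starts, a fold of 2, and leaving out shared starts or the genes outside everyday use.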

Additional observations from a re-analysis of the deposited data

Results flagged for a closer look

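The median difference after knockdown was near 0 in 1 line and below 0 in the other. Over the subunit genes with a peak in both libraries of a line, the median log2 ratio of covered bases was 0.0074 in Kasumi-1 and -0.2929 in MV4-11. Over all protein-coding genes the medians were 0.0041 and -0.2719, close to those of the subunit genes. The Kasumi-1 median gives no direction, with 36 subunit genes lower and 41 higher. NDUFA6 and COX6A1 moved by at least 1.5-fold in opposite directions. NDUFA6 differed by -626 bases in Kasumi-1, where its peak was lost, and by 252 bases in MV4-11. COX6A1 differed by 258 bases in Kasumi-1 and by -296 bases in MV4-11, where its peak was lost. The MV4-11 NC peaks of NDUFA6 and COX6A1 were 309 and 296 bases wide, close to the narrowest of that list (289 bases). Both lay under the common minimum width of 357 bases. The share of all genes that moved in opposite directions was not counted. With 1 library per group these differences between the lines were not tested.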

How the results depend on the processing

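Of 138 values recomputed under 9 alternatives, 30 moved, counts by more than 1.5 times and medians beyond the 95% interval of the median over genes. The other 108 include the MV4-11 median log2 ratio of -0.29. It was -0.10 with at least 500 covered bases and -0.16 with a window of 1000 bases (all genes -0.22 in both). Also among the 108 was the loss of 10 of 64 genes in MV4-11 (15.6%, all genes 24.4%). With at least 500 covered bases the loss became 15 of 50 (all genes 29.9%), so the members' lower share was not kept there. With only peaks of at least 1000 bases, 28 and 20 genes had a peak in MV4-11 NC and sh-ANP32B, 31 in Kasumi-1 NC and not MV4-11 NC, and the MV4-11 median log2 ratio was -0.0673 (all genes -0.1522). Kasumi-1 then had 8 lost of 57 with an NC peak (all genes 12.4%), 3 gained and 11 lower genes. MV4-11 had 1 gained, 11 lower, 2 higher and 1 with a start no longer covered. No all-gene shares were taken for the gained, lower and higher counts at this setting. For the 54 genes without a shared start, 46, 45, 36 and 31 had a peak in the 4 libraries, 11 in Kasumi-1 NC and not MV4-11 NC, and 1 the reverse. Kasumi-1 then had 3 lower and 3 higher, and MV4-11 6 lost, 1 gained, 17 lower and 5 with a start no longer covered. The counts over these 54 genes are smaller by construction, since fewer genes enter. Of the counts with only wide peaks, some were smaller and the Kasumi-1 lost, gained and lower ones, and those in Kasumi-1 NC and not MV4-11 NC, were larger, and the cause was not tested. At a fold of 2, 3 genes were lower and 2 higher in Kasumi-1, and 16 lower in MV4-11. With at least 500 covered bases, 3 were gained in Kasumi-1, 0 had a peak in MV4-11 NC and not Kasumi-1 NC, and 2 lost cover of the start in MV4-11. With a common minimum width and joining gap (357 bases), 5 were gained in MV4-11. The MV4-11 NC peaks of NDUFA6 and COX7C, 309 bases wide at each, lay under this minimum. Their MV4-11 sh-ANP32B peaks, of 561 and 874 bases, did not. The count of each start once was chosen after seeing the data and moved no value. The number of Kasumi-1 starts that lost their cover was 0 under each alternative run for it. No paired analysis was possible because the labels give no replicate numbers and each group is 1 merged list. Depth is unknown, so an absent peak does not show an absent mark.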

Other observations

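Several subunit genes have more than 1 annotated coding start, and cover summed over the windows of all of them gave other patterns at some. ATP5MJ, with 5 starts, had 0, 1145, 369 and 776 bases in Kasumi-1 NC, Kasumi-1 sh-ANP32B, MV4-11 NC and MV4-11 sh-ANP32B, so that the gain in Kasumi-1 was wider than at the canonical start. NDUFV1, with 10 starts, had 2496, 3307, 740 and 0 bases, which placed a peak in MV4-11 NC that lies outside the canonical window. The peak of NDUFS8, with 6 starts, was absent from MV4-11 sh-ANP32B in this count as well (4012, 3524, 747 and 0 bases), as was that of ATP5F1B, with 4 starts. COX4I2, COX6A2, COX6B2, COX7A1, COX7B2, NDUFA5, NDUFA9 and UQCRHL had 0 bases in all 4 libraries over all their starts.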
